A study of Macaca fascicularis with 2 samples.

Results

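The genes described are those of oxidative phosphorylation in blood T cells that carry CD4 and CD8 together, called double-positive (DP) T cells. Members were every gene whose symbol in the deposited gene list starts with NDUFA, NDUFB, NDUFC, NDUFS, NDUFV, UQCR, COX4, COX5, COX6, COX7, COX8, ATP5 or SDH, together with the protein genes of the mitochondrial genome, *ND1* to *ND6*, *ND4L*, *COX1* to *COX3*, *ATP6*, *ATP8* and *CYTB*. The rule found 77 of 29324 listed genes, 64 of them in the nuclear genome and 13 in the mitochondrial genome. Of the listed genes, 7899 carried an identifier and no symbol, so nuclear members listed that way were not analysed here. *COX4I1*, *COX6A1*, *COX6B1*, *COX7A2* and *NDUFA4* were not listed by symbol. Whether they are among the genes with an identifier only is not known.

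The cells were CD4+CD8+ DP T cells from peripheral blood of 1 untreated cynomolgus monkey (*Macaca fascicularis*), aged 10 years. Selection used fresh mononuclear cells and magnetic beads, with releasable CD4 beads in an initial step and CD8 beads in a later step. The same cells gave a 5′ gene expression library and a library of CD4 and CD8 antibody tags. All groups compared below are classes of cells within this 1 preparation, so no difference has a replicate and no test was made. Each UMI (unique molecular identifier) stands for 1 captured RNA molecule, and all intervals are exact 95% intervals that cover counting error only.

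Oxidative phosphorylation takes place in the inner mitochondrial membrane. Complex I (NADH dehydrogenase) and complex II (succinate dehydrogenase) pass electrons to ubiquinone, complex III (the cytochrome bc1 complex) passes them on to cytochrome c, and complex IV (cytochrome c oxidase) hands them to oxygen. Complexes I, III and IV pump protons, and complex V (ATP synthase) uses the gradient to make ATP. Complexes I, III, IV and V each combine subunits encoded in the nucleus with subunits encoded in mitochondrial DNA, whereas complex II is encoded in the nucleus alone. Naive T cells rely largely on oxidative phosphorylation, and activated T cells also raise glycolysis.

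After the limits on genes and mitochondrial UMIs, 8830 of 8953 barcodes remained, with 31677119 gene UMIs and a median of 3145 UMIs per cell. The study states a lower number of cells after filtering with the same limits, and any further step behind that gap is not given in the sources used here. The mitochondrial members held 3.70% of all UMIs and the nuclear members 0.925%. Cells were clustered without the members, and clusters were named from marker genes. Naive-like clusters held 5219 cells, helper clusters (Th2-, Th17- and Tfh-like) 1062, FOXP3-positive (Treg-like) clusters 582, cytotoxic clusters (CD4 CTL- and CD8 CTL-like) 1280 and the cycling cluster 47. Median depth differed between them, from 2857 UMIs in naive-like and 3348 in FOXP3-positive cells to 3602 in cytotoxic, 4666 in helper and 7219 in cycling cells, so all values are per gene UMI.

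Marker levels were summed to describe these classes. The same lists had served to name the clusters, so high sums of a class's own list do not check its name. The *FOXP3*, *IL2RA*, *IKZF2* and *CTLA4* list summed to 558 CPM (counts per 1000000 gene UMIs) in FOXP3-positive cells against 24.6 CPM in naive-like cells. Cytotoxic cells held 5333 CPM of the CD4 CTL list, which includes *GZMB* and *PRF1*, against 103 CPM in naive-like cells. The cycling cells carried all 11 cycling markers and also 3754 CPM of the CD4 CTL list. The T cell list (*CD3D*, *CD3E*, *CD3G* and *TRAC*) summed to between 2863 and 4134 CPM in the 5 classes, and the B-like list to between 17.2 and 62.5 CPM. Of the Tfh-like cells, the 264 cells of cluster 4.0 carried 3 of 4 Tfh markers with none among their leading genes, and the 227 cells of cluster 4.1 also carried 3 of 4 Treg markers.

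Summed over the 64 nuclear genes, oxidative phosphorylation transcripts were lowest in FOXP3-positive and naive-like cells and highest in cycling cells. Naive-like cells held 87.6 UMIs per 10000 gene UMIs (95% interval 87.1 to 88.0). FOXP3-positive cells held 82.1 (80.9 to 83.3), helper cells 96.4 (95.6 to 97.3), cytotoxic cells 106 (105 to 107) and cycling cells 125 (122 to 129). No interval overlapped that of another of the 5 classes, and the level in cycling cells was 1.43-fold that in naive-like cells.

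The 13 mitochondrial genes were ordered otherwise. The sum was 388 UMIs per 10000 in FOXP3-positive cells (386 to 391), 379 in naive-like cells (378 to 380.0), 358 in helper cells (357 to 360), 341 in cycling cells (335 to 347) and 315 in cytotoxic cells (313 to 316). Cytotoxic cells were thus the lowest of the 5 classes for the mitochondrial genes and the second highest for the nuclear genes. The mitochondrial sum was 4.73 times the nuclear sum in FOXP3-positive cells, 4.33 times in naive-like cells, 3.71 times in helper cells, 2.97 times in cytotoxic cells and 2.72 times in cycling cells. The filter on cells uses the same 13 genes, so their upper range was limited by that filter in all classes.

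**Figure D1:**
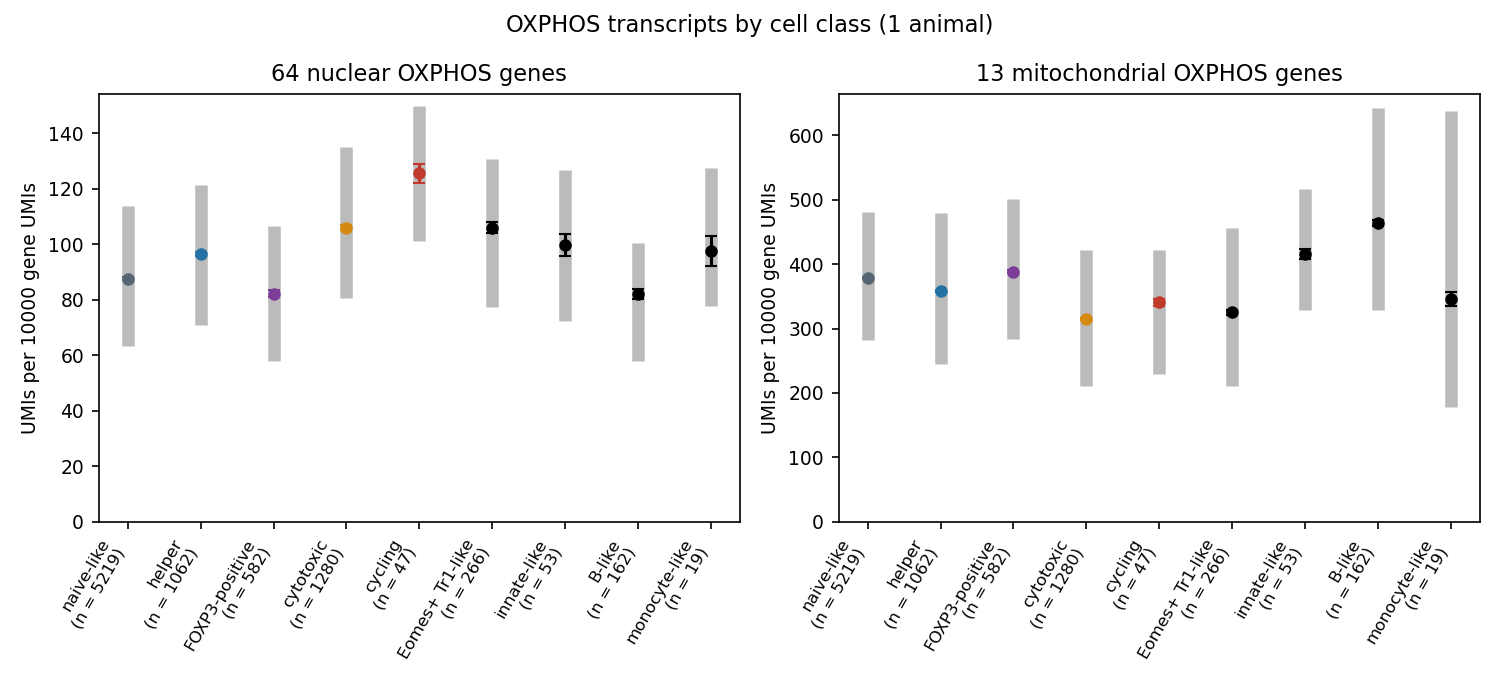
Summed UMIs of the 64 nuclear (left) and 13 mitochondrial (right) oxidative phosphorylation genes per 10000 gene UMIs (vertical axes, starting at 0) in 9 classes of cells, with the number of cells under each name. Points are sums over all cells of a class with exact Poisson 95% intervals, and grey bars run from the 10th to the 90th percentile of single cells. Among the T cell classes the nuclear sum runs from 82.1 in FOXP3-positive to 125 in cycling cells, the mitochondrial sum is lowest, at 315, in cytotoxic cells, and the grey bars of these classes overlap.

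Against naive-like cells, the log2 ratio of the nuclear sum was 0.52 in cycling cells (0.48 to 0.56), 0.28 in cytotoxic cells (0.26 to 0.29), 0.14 in helper cells (0.12 to 0.15) and −0.09 in FOXP3-positive cells (−0.12 to −0.07). The log2 ratio of the mitochondrial sum was −0.15 (−0.18 to −0.13), −0.27 (−0.28 to −0.26), −0.08 (−0.09 to −0.07) and 0.04 (0.02 to 0.05) in the same order. All 4 comparisons share the naive-like cells. In the FOXP3-positive cells both signs depended on how the class was drawn: with at most 10% mitochondrial UMIs per cell the ratios were 0.02 and −0.02, and with 10 principal components they were 0.07 and −0.03. The mitochondrial ratio of cycling cells was 0.03 when 36 cells were taken by marker gates, and −0.22 without the 1 cycling cell that had over 10% mitochondrial UMIs.

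Transcripts of cytosolic ribosomal proteins took a large and unequal part of the UMIs. They made up 27.1% of UMIs in naive-like cells, 26.6% in FOXP3-positive, 23.2% in helper, 17.4% in cytotoxic and 13.2% in cycling cells. With these UMIs left out of the denominator, an alternative chosen after the data had been seen, the nuclear log2 ratio was 0.27 in cycling, 0.09 in cytotoxic and 0.06 in helper cells. The mitochondrial log2 ratio was then −0.41, −0.45 and −0.16. The directions stayed, the nuclear differences shrank and the mitochondrial differences grew. This change of scale lowers every log2 ratio by the same amount within a comparison, and it fell by 0.25 for cycling, 0.18 for cytotoxic, 0.08 for helper and 0.01 for FOXP3-positive cells.

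Single cells overlapped widely. All 47 cycling cells and 84.5% of cytotoxic cells lay above the naive-like median of the nuclear share, against 66.0% of helper and 38.0% of FOXP3-positive cells. For the mitochondrial share, 21.6% of cytotoxic, 19.1% of cycling, 39.6% of helper and 56.2% of FOXP3-positive cells lay above the naive-like median. The 10th to 90th percentiles of the mitochondrial share were 282 to 481 per 10000 in naive-like cells and 210.1 to 421 in cytotoxic cells. Differences in depth moved with the classes, so the sums were also taken within bands of depth. Among cells of 3000 to 4000 UMIs, the nuclear sum was 108 in cytotoxic and 87.7 in naive-like cells, and the mitochondrial sum was 311 and 373. From 2000 UMIs upward each of the 4 bands gave the same order of cytotoxic and naive-like cells for both sums, while below 2000 UMIs the 28 cytotoxic cells had the higher mitochondrial sum, 428 against 404. Helper cells did not keep their order for the mitochondrial sum, which was 424 against 381 in naive-like cells at 2000 to 3000 UMIs and 373 in both classes at 3000 to 4000 UMIs. In FOXP3-positive cells the mitochondrial sum turned from 4000 UMIs upward. It was 374 against 387 at 4000 to 5000 UMIs and 363 against 375 over 5000 UMIs. The nuclear sum of FOXP3-positive cells turned only over 5000 UMIs, to 89.3 against 86.3.

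Within the broad classes the clusters differed as well. CD4 CTL-like cells held 110 nuclear and 296 mitochondrial UMIs per 10000, and CD8 CTL-like cells 101 and 343, which gave log2 differences of 0.12 (0.10 to 0.15) and −0.21 (−0.23 to −0.20) between these cytotoxic types. Eomes+ Tr1-like cells (266 cells), which express *GZMK*, held 106 and 325. Among helper cells the Th2-like cells stood apart in the mitochondrial sum, with 323 against 371 in Th17-like and 364 in Tfh-like cells, while their nuclear sums were 94.4, 95.8 and 97.8. The Th2-like cluster had none of its markers among its leading genes and also carried 4 of 5 Th17 markers. The Tfh-like clusters held 89.4 and 378 (cluster 4.0) and 107 and 348 (cluster 4.1). The FOXP3-positive class joined a cluster of 429 cells with 78.5 nuclear UMIs per 10000 (77.1 to 79.9) and a cluster of 153 cells with 92.1 (89.6 to 94.6), on either side of the naive-like value.

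Innate-like cells (53 cells), marked by *TYROBP* and *FCER1G*, were above naive-like cells for both genomes, with 99.7 nuclear and 415 mitochondrial UMIs per 10000. B-like cells (162) held 82.0 and 464, the highest mitochondrial sum of any named class, and monocyte-like cells (19) held 97.3 and 346. Over the 15 named T cell clusters, the nuclear sum and the mitochondrial sum had Pearson's r = −0.64 and Spearman's rho = −0.72, and the nuclear sum and the ribosomal protein share had r = −0.94. These points share 1 library and 1 denominator and serve as a description. Across cells within a class the nuclear and mitochondrial shares had r = 0.001 in naive-like and r = −0.14 in cytotoxic cells. Naive-like cells had a median of 2857 UMIs and 87.6 nuclear UMIs per 10000, so single-cell shares carry large counting error. Such error weakens any r, so whether the shares are related across cells cannot be judged from these values.

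**Figure D2:**
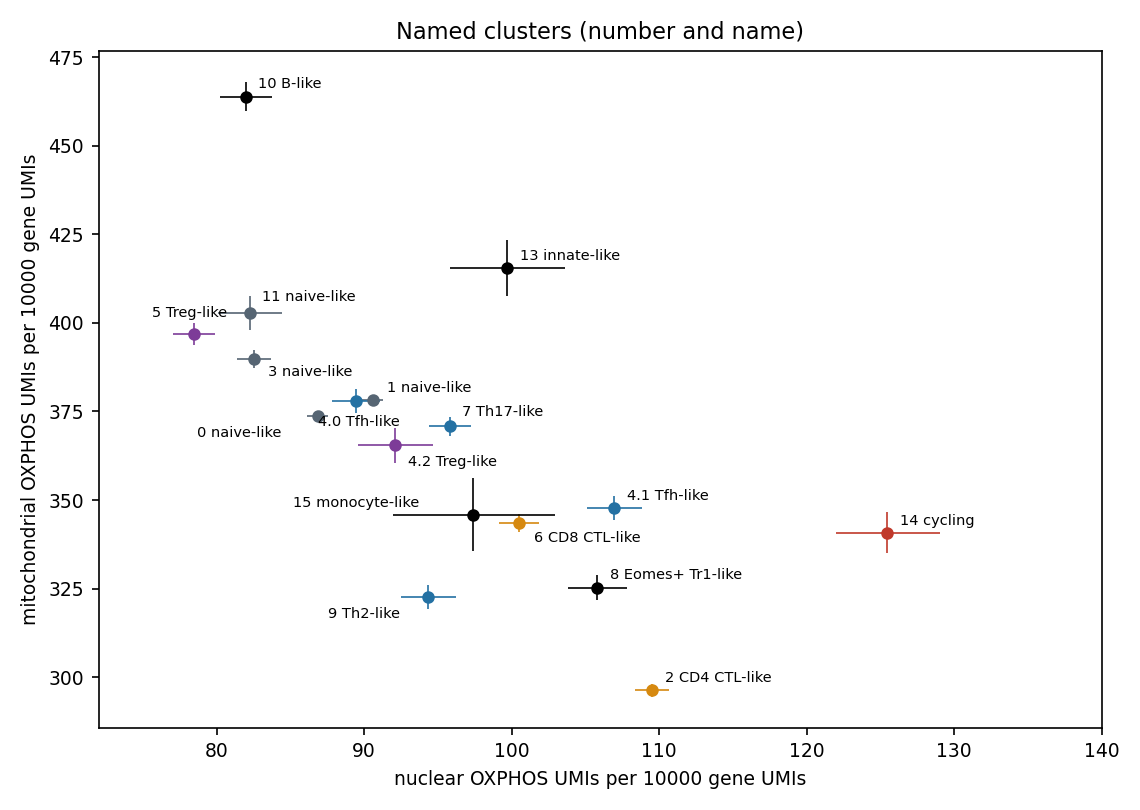
Nuclear (horizontal axis) against mitochondrial (vertical axis) oxidative phosphorylation UMIs per 10000 gene UMIs in each named cluster, labelled with its number and name, with exact Poisson 95% intervals. Axes do not start at 0. CD4 CTL-like cells lie lowest at 296 mitochondrial UMIs, cycling cells lie farthest right at 125 nuclear UMIs, and the B-like and innate-like clusters lie above the other clusters at 464 and 415 mitochondrial UMIs.

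Gene by gene, the cycling cells differed most. Genes with at least 20 expected UMIs in both groups were compared, and a CPM ratio of at least 1.5-fold was counted. Of 42 nuclear members compared in cycling cells, 27 were at least 1.5-fold higher than in naive-like cells and 0 were lower. Of all 2036 genes compared, 29.5% were higher and 25.1% lower by that fold. The members' median log2 ratio was 0.73 against 0.11 for all genes, and 38 of the 42 lay above the all-gene median. The other 22 members fell under the limit on expected UMIs, given the 47 cycling cells.

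In cytotoxic cells, 7 of 58 members compared were at least 1.5-fold higher and 0 lower, against 25.5% and 13.8% of 8659 genes. The share of members past the fold, 12.1%, was thus below that of all genes, and no share of genes with similar UMIs was computed. These counts depended on the processing: 2 were higher and 4 lower without ribosomal protein UMIs, 13 were higher with 10 principal components, and 12 were higher and 1 lower without the cells of the highest doublet scores. For these alternatives no share of all genes is given. In the main setting the members' median log2 ratio was 0.32 against 0.16 for all genes. Of the 58 members, 50 lay above 0, against 60.6% of all genes (41 of 58 with ribosomal protein UMIs left out of the denominator). In helper cells 0 of 59 members passed the fold in either direction, against 15.2% higher and 9.13% lower among 8651 genes, and the medians were 0.11 and 0.04. FOXP3-positive cells likewise had 0 of 58 members past the fold, against 4.64% higher and 7.76% lower among 6597 genes, with medians of −0.10 and −0.07. Here 39 of 58 members lay below 0, as did 59.1% of all genes.

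**Figure D3:**
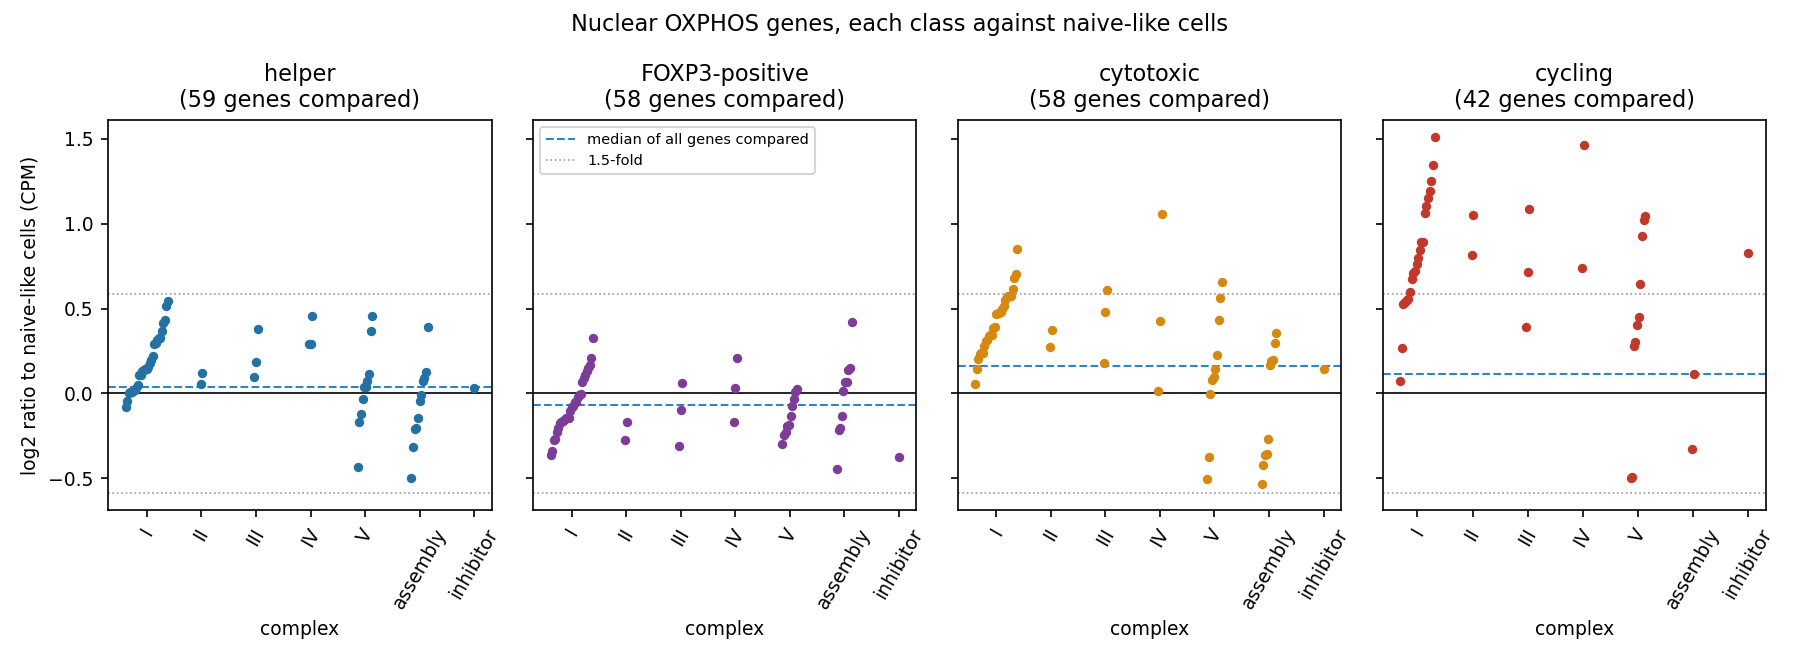
The log2 ratio of CPM to naive-like cells (vertical axis) for each nuclear gene compared, grouped along the horizontal axis by complex, with assembly factors and the complex V inhibitor apart, in helper, FOXP3-positive, cytotoxic and cycling cells. Each point is 1 gene, the dashed line is the median of all genes compared, and dotted lines mark 1.5-fold. In cycling cells 27 of 42 points lie above the upper dotted line, and the low points of complex V are *ATP5PO* and *ATP5MC2*.

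Complex I has the most members, 30 nuclear genes, and its summed level followed the overall order. It held 32.4 UMIs per 10000 in naive-like, 31.1 in FOXP3-positive, 37.3 in helper, 42.8 in cytotoxic and 54.8 in cycling cells. The log2 ratio to naive-like cells was 0.76 in cycling cells (0.69 to 0.82) and 0.40 in cytotoxic cells (0.38 to 0.42), and both remained above 0, at 0.50 and 0.22, without ribosomal protein UMIs. All 22 genes compared in cycling cells and all 29 compared in cytotoxic cells lay above 0, against 54.3% and 60.6% of all genes.

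*NDUFS8*, which encodes an iron-sulfur subunit that carries electrons through the peripheral arm, had the largest ratio of any member in cycling cells. Its level was 57.2 CPM in naive-like, 54.2 in helper, 51.8 in FOXP3-positive, 72.5 in cytotoxic and 163 CPM in cycling cells, so the log2 ratio was 1.51 (1.12 to 1.88) in cycling and 0.34 (0.17 to 0.52) in cytotoxic cells. *NDUFB7*, an accessory subunit on the intermembrane side, was high in more classes, with 89.0 CPM in naive-like, 112 in FOXP3-positive, 120 in helper, 161 in cytotoxic and 226 CPM in cycling cells. It was the only member among the 5 largest positive ratios of all 4 comparisons. *NDUFB10*, another membrane-arm accessory subunit, had 104 CPM in naive-like, 94.2 in FOXP3-positive, 152 in helper, 169 in cytotoxic and 193 CPM in cycling cells, and its log2 ratio of 0.55 (0.42 to 0.67) was the largest of any member in helper cells.

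*NDUFS6*, a zinc-binding accessory subunit, was at 68.3 CPM in naive-like, 89.2 in cytotoxic and 163 CPM in cycling cells. *NDUFAB1*, the mitochondrial acyl carrier protein, which also serves fatty acid synthesis, was at 56.8, 84.4 and 130 CPM in the same classes. *NDUFS6* was 2.38-fold higher in cycling than in naive-like cells, and *NDUFAB1* had a log2 ratio of 1.19 (0.76 to 1.60). *NDUFA10* had 37.7 CPM in naive-like and 60.4 CPM in cytotoxic cells, a log2 ratio of 0.68 (0.48 to 0.88).

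The complex I members with the most UMIs differed less. *NDUFS5* was at 401 CPM in naive-like, 381 in FOXP3-positive, 454 in helper, 472 in cytotoxic and 590 CPM in cycling cells. *NDUFA1*, which is needed for assembly of the membrane arm, was at 313, 291, 344, 368 and 455 CPM in the same order. *NDUFA11* ranged from 209 CPM in FOXP3-positive to 287 CPM in cytotoxic cells, and its cycling interval for the log2 ratio, −0.02 to 0.54, held 0. In helper cells *NDUFB9* stood at 223 CPM against 156 CPM in naive-like cells, a log2 ratio of 0.51 (0.41 to 0.61).

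FOXP3-positive cells showed small differences in both directions within complex I. *NDUFC1* was at 148 CPM against 129 CPM in naive-like cells, a log2 ratio of 0.21 (0.03 to 0.38). *NDUFS4*, at 34.7 against 44.6 CPM, had −0.36 (−0.73 to −0.01). The intervals of *NDUFS1* (−0.88 to 0.17) and *NDUFA9* (−0.14 to 0.47) held 0, so these differences were not detectable at this depth.

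Complex II was represented by *SDHB*, its iron-sulfur subunit, and *SDHD*, a membrane anchor. Their sum was 1.07 UMIs per 10000 in naive-like, 0.918 in FOXP3-positive, 1.14 in helper, 1.34 in cytotoxic and 2.06 in cycling cells. The log2 ratio was 0.94 in cycling cells (0.60 to 1.27) and 0.32 in cytotoxic cells (0.19 to 0.45). *SDHD* was at 56.5 CPM in naive-like and 117 CPM in cycling cells, and *SDHB* at 50.7 and 89.0 CPM. In helper cells the interval of the sum, −0.04 to 0.23, held 0.

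Complex III had 3 nuclear members, *UQCRQ* and *UQCRB*, small subunits involved in ubiquinone binding, and *UQCRC1*, a core subunit. Their summed log2 ratio was 0.78 in cycling (0.59 to 0.97), 0.37 in cytotoxic (0.30 to 0.43), 0.28 in helper (0.21 to 0.35) and −0.16 in FOXP3-positive cells (−0.28 to −0.04). *UQCRC1* was at 99.5 CPM in naive-like, 104 in FOXP3-positive, 113 in helper, 152 in cytotoxic and 211 CPM in cycling cells. *UQCRQ* went the other way in FOXP3-positive cells, with 157 CPM against 195 CPM in naive-like cells and 253 CPM in helper cells. *UQCRB* was at 64.1 CPM in naive-like and 89.2 CPM in cytotoxic cells, and its cycling interval (−0.16 to 0.89) held 0.

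The complex IV sum rests on *COX8A*, *COX7B* and *COX7A1*, since *COX4I2*, *COX6B2* and *COX7B2* had 0 UMIs and *COX6A2* had 1. *COX4I1*, *COX6A1*, *COX6B1* and *COX7A2* were not listed by symbol, so the sum does not stand for the whole complex. In helper, cytotoxic and cycling cells this sum had the largest log2 ratio of the 5 complexes. In FOXP3-positive cells its ratio of −0.05 (−0.16 to 0.06) held 0. Among the complex IV members, *COX8A* had the largest ratio in helper, cytotoxic and cycling cells. This gene, which encodes the ubiquitous form of subunit VIII, was at 155 CPM in naive-like (149 to 161), 158 in FOXP3-positive (142 to 176), 212 in helper (200.3 to 225), 322 in cytotoxic (307 to 337) and 427 CPM in cycling cells (365 to 497). The naive-like and FOXP3-positive intervals overlapped, and each of the other classes lay above the one before. Its log2 ratio of 1.06 (0.97 to 1.15) in cytotoxic cells was the largest of any member there and its ratio of 1.47 (1.23 to 1.69) in cycling cells the second largest. *COX7B*, a small membrane subunit, had 181 CPM in naive-like, 161 in FOXP3-positive, 222 in helper, 244 in cytotoxic and 303 CPM in cycling cells. The complex IV sum over 7 members had log2 ratios of 1.09 in cycling and 0.71 in cytotoxic cells, and 0.83 and 0.53 without ribosomal protein UMIs.

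Of the subunit forms known from other tissues, 1 was clearly present and 5 had at most 1 UMI. *COX4I2*, the lung form, *COX6B2* and *COX7B2*, testis forms, and the complex I paralogue *NDUFA4L2* had 0 UMIs in all kept cells, which allows up to 0.0947 CPM by the limit of 3 counts. *COX6A2*, the heart and muscle form, had 1 UMI. *COX7A1*, also known as a heart and muscle form, had 935 UMIs, or 29.5 CPM. Its level was 26.8 CPM in naive-like (24.3 to 29.4), 27.1 in cytotoxic (22.8 to 31.9), 30.9 in FOXP3-positive (23.9 to 39.4), 32.7 in helper (28.0 to 37.9) and 40.7 CPM in cycling cells (23.3 to 66.1). The 5 intervals overlapped one another for all pairs of neighbours in this order. B-like cells, at 50.9 CPM (37.9 to 66.9), and innate-like cells, at 62.8 CPM (35.9 to 102), lay above naive-like cells. The common partner forms of these subunits other than *COX8A* were not analysed here.

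Among members listed by symbol, complex V had the largest nuclear sum in all of the 5 classes but the cycling cells. There complex I lay above it. Subunits without a listed symbol are missing from these sums. The 10 members of complex V summed to 41.3 UMIs per 10000 in naive-like, 38.4 in FOXP3-positive, 43.6 in helper, 45.7 in cytotoxic and 48.3 in cycling cells. The summed log2 ratios of 0.23 in cycling (0.16 to 0.29) and 0.15 in cytotoxic cells (0.13 to 0.17) turned to −0.03 and −0.03 without ribosomal protein UMIs, so the direction for this complex depended on the scale. Members on either side of 0 lay behind these sums.

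*ATP5F1E*, the epsilon subunit of the central stalk, had the most UMIs of the nuclear members of complex V, with 1225 CPM in naive-like, 1245 in FOXP3-positive, 1513 in cycling, 1678 in helper and 1810 CPM in cytotoxic cells. *ATP5F1B*, the catalytic beta subunit, was at 138 CPM in naive-like and in FOXP3-positive cells, 178 in helper, 218 in cytotoxic and 280 CPM in cycling cells. In contrast, *ATP5PO*, the stalk subunit that confers oligomycin sensitivity, was highest in naive-like cells, at 747 CPM (734 to 761), and lower in FOXP3-positive (638), cytotoxic (576), helper (554) and cycling cells (532). *ATP5MC2*, 1 of the genes for the c subunit of the rotor, was at 655 CPM in naive-like, 583 in helper, 575 in FOXP3-positive, 462 in cytotoxic and 463 CPM in cycling cells. The log2 ratios of *ATP5MC2* were −0.51 (−0.57 to −0.44) in cytotoxic and −0.50 (−0.72 to −0.29) in cycling cells. Both genes lay below naive-like cells in all 4 comparisons, but not by 1.5-fold.

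*ATP5IF1*, the protein that inhibits the reverse, ATP-consuming action of complex V, was at 149 CPM in naive-like, 115 in FOXP3-positive, 152 in helper, 164 in cytotoxic and 265 CPM in cycling cells. Its log2 ratio was −0.38 (−0.57 to −0.19) in FOXP3-positive and 0.83 (0.53 to 1.11) in cycling cells. In cytotoxic cells it was 0.14 and turned to −0.04 without ribosomal protein UMIs.

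Assembly factors, which build the complexes and are not part of them, did not share the higher level. The 11 members named NDUFAF or SDHAF summed to 4.08 UMIs per 10000 in naive-like, 3.85 in helper, 3.86 in FOXP3-positive, 3.91 in cytotoxic and 3.84 in cycling cells. The log2 ratio was −0.09 in cycling (−0.33 to 0.15) and −0.06 in cytotoxic cells (−0.13 to 0.01), and both intervals held 0. *NDUFAF8* had the most UMIs of these, with 118 CPM in naive-like and 91.8 CPM in cytotoxic cells, a log2 ratio of −0.37 (−0.51 to −0.22). *NDUFAF4* was at 41.4 CPM in naive-like against 29.3 in helper and 30.9 CPM in cytotoxic cells, and *NDUFAF5* at 20.3 CPM in naive-like against 14.0 CPM in cytotoxic cells.

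Other assembly factors were higher in some classes. *NDUFAF3* had 77.6 CPM in naive-like, 95.4 in cytotoxic and 57.1 CPM in FOXP3-positive cells, where its log2 ratio of −0.44 (−0.73 to −0.17) was the lowest of any member. *SDHAF1*, needed for iron-sulfur insertion into complex II, was at 36.2 CPM in naive-like, 29.2 in helper and 48.5 CPM in FOXP3-positive cells, where its 0.42 (0.10 to 0.73) was the highest. *SDHAF2*, which helps attach the flavin of complex II, was at 47.2 CPM in naive-like and 60.4 CPM in cytotoxic cells. The interval of *NDUFAF7* in helper cells, −0.61 to 0.18, held 0.

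The mitochondrial genes are copied from the 2 strands of mitochondrial DNA as long precursors that are then cut, and 12 of the 13 lie on the heavy-strand transcript. *COX2* had the most UMIs, at 10609.8 CPM in naive-like, 11006 in FOXP3-positive, 9803 in helper, 8541 in cytotoxic and 8108 CPM in cycling cells. In cytotoxic cells 12 of 13 genes lay below naive-like cells, against 39.4% of all genes compared, and none reached 1.5-fold. The exception was *ND4*, at 859 against 825 CPM, whose log2 ratio of 0.06 turned below 0 without ribosomal protein UMIs. *ND5* (1157 against 1631 CPM), *ND6* (504 against 720 CPM) and *ND4L* (4047 against 5375 CPM) had the lowest ratios in cytotoxic cells, with log2 values of −0.50, −0.51 and −0.41.

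The complexes were unequal within this set. Against naive-like cells, the mitochondrial subunits of complex I had log2 ratios of −0.34 in cytotoxic and −0.31 in cycling cells, and those of complex IV −0.25 and −0.22. *ATP6* and *ATP8* of complex V had −0.10 in cytotoxic and −0.01 in cycling cells. *CYTB*, the complex III subunit, parted these classes, with 4534 CPM in naive-like, 3744 in cytotoxic and 5540 CPM in cycling cells, log2 ratios of −0.28 (−0.30 to −0.25) and 0.29 (0.23 to 0.35). For complex IV the nuclear sum was thus above and the mitochondrial sum below naive-like cells in both of these classes, with *COX1* in cycling cells the 1 mitochondrial gene of this complex not below, at 0.01 (−0.07 to 0.10).

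*ND6*, the member on the light strand, was the lowest of the 13 in cycling cells and the 1 mitochondrial gene past 1.5-fold in any comparison. Its level was 720 CPM in naive-like (707 to 733), 627 in FOXP3-positive (594 to 662), 605 in helper (585 to 627), 504 in cytotoxic (486 to 524) and 448 CPM in cycling cells (384 to 519). The FOXP3-positive and helper intervals overlapped, as did the cytotoxic and cycling intervals. In FOXP3-positive cells 9 of 13 mitochondrial genes lay above 0, against 40.9% of all genes. *ND6* and *ND5* were the lowest there, at −0.20 (−0.28 to −0.12) and −0.15 (−0.20 to −0.09). In helper cells 4 of 13 lay above 0, against 53.2% of all genes. *ND4* was the highest there at 0.15 (0.10 to 0.19), and *ND4L* was the lowest at −0.29 (−0.31 to −0.27). *ND4L* overlaps *ND4* and *ATP8* overlaps *ATP6* in the mitochondrial genome, and how reads over both genes or on the opposite strand were counted is not given in the sources used here, so values within these pairs and for *ND6* are uncertain.

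**Figure D4:**
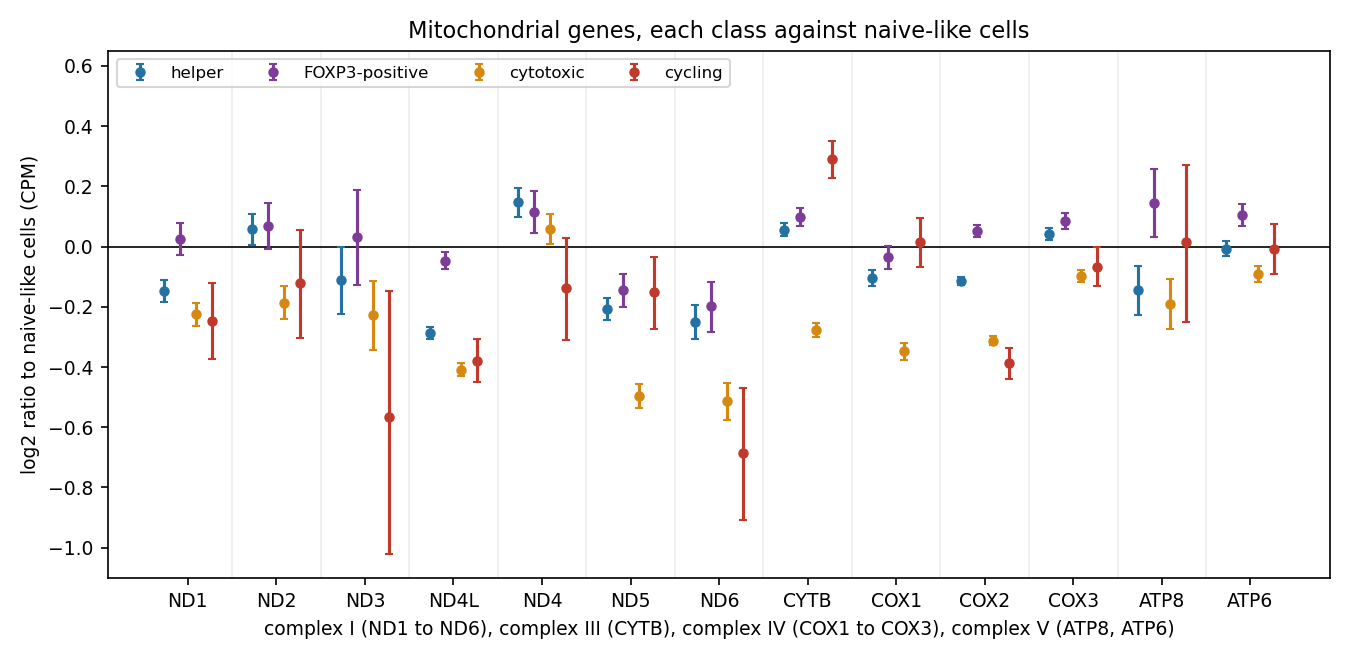
The log2 ratio of CPM to naive-like cells (vertical axis) for each of the 13 mitochondrial genes (horizontal axis, by complex) in helper, FOXP3-positive, cytotoxic and cycling cells, with exact 95% intervals for counting error. Cytotoxic cells lie below 0 for 12 of 13 genes, *CYTB* is above 0 in cycling cells at 0.29, and *ND6* is below 0 in all 4 classes.

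The antibody tags divided the cells further. Within naive-like cells, the nuclear sum was 87.9 UMIs per 10000 in the 4555 cells with high CD4 and low CD8 tags, 87.0 in the 515 cells high for both and 82.0 in the 129 cells with low CD4 and high CD8 tags. The mitochondrial sum was 373, 416 and 404 in the same order. The medians over cells were 369, 383 and 397, so the group high for both tags was highest only by the sum. Within cytotoxic cells the nuclear sum was 110, 103 and 106, and the mitochondrial sum 298, 320 and 339. In each of the 3 tag groups, cytotoxic cells lay above naive-like cells for the nuclear genes and below them for the mitochondrial genes.

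Related gene lists were read the same way, by counts past 1.5-fold and the median beside all genes. The electron carriers and their partners lay with the nuclear members. *CYC1*, the cytochrome c1 of complex III, was at 113 CPM in naive-like cells with log2 ratios of 1.08 in cycling and 0.43 in cytotoxic cells, and all 3 genes of this list that could be compared in cycling cells, of 6 with a symbol, passed the fold, as did 29.5% of all genes. Of 13 tricarboxylic acid cycle genes compared in cytotoxic cells, 5 were higher past the fold and 0 lower, with a median of 0.41, against 25.5% and 13.8% of all genes and a median of 0.16. *IDH2*, the mitochondrial NADP-dependent isocitrate dehydrogenase, stood out in this list with log2 ratios of 1.94 in cytotoxic and 2.85 in cycling cells, while *SUCLG1* had −0.13 and 0.11.

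The glycolysis list, of which 12 of 18 genes had a symbol, had a higher median than the nuclear members in all 4 comparisons. Its median log2 ratio was 1.33 over 6 genes in cycling and 0.10 over 8 genes in FOXP3-positive cells. It was 0.44 over 10 genes in cytotoxic and 0.65 over 10 genes in helper cells. In helper cells 6 of these 10 were higher past the fold, against 15.2% of all genes. *GAPDH* had log2 ratios of 3.03 in cycling, 2.09 in cytotoxic, 1.38 in helper and 0.69 in FOXP3-positive cells. *PGK1*, a later enzyme of the same pathway, had 0.27 in cycling, −0.35 in cytotoxic and −0.02 in FOXP3-positive cells. In cycling cells all 6 genes compared lay above 0 (54.3% of all genes), and in cytotoxic cells 6 of 10 did (60.6%).

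Genes that copy, transcribe and translate mitochondrial DNA had lower medians than the nuclear members in helper, cytotoxic and cycling cells. Of 16 genes for mitochondrial DNA replication, transcription and RNA handling compared in cytotoxic cells, 1 was higher and 2 lower past the fold, against 25.5% and 13.8% of all genes, and the median was −0.22. In FOXP3-positive cells the median was −0.31 over 15 genes, with 0 higher and 2 lower. *LRPPRC*, which stabilises mitochondrial mRNAs, was at 65.3 CPM in naive-like cells with log2 ratios of −0.22 in cycling, −0.24 in cytotoxic, −0.31 in FOXP3-positive and −0.13 in helper cells. The 64 mitochondrial ribosomal protein genes had a median of 0.12 in cytotoxic cells, with 10 higher and 2 lower, which is under the median of all genes, 0.16, and a median of 0.32 over the 20 genes compared in cycling cells. Import genes of the TOMM and TIMM families had a median of 0.17 over 19 genes in cytotoxic cells, with 2 higher and 2 lower.

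Complex IV assembly genes had 3 higher and 1 lower of 11 compared in cytotoxic cells, shares near the 25.5% and 13.8% of all genes. *COX17*, the copper chaperone of complex IV, was at 39.4 CPM in naive-like cells with log2 ratios of 2.02 in cycling, 1.06 in cytotoxic, 0.87 in helper and 0.26 in FOXP3-positive cells. Among the carriers of the inner membrane and the outer membrane channels, 4 of 6 genes compared in cycling cells were higher past the fold, against 29.5% of all genes. *SLC25A5*, an ADP/ATP carrier, had 1.42 in cycling and −0.21 in cytotoxic cells, and *SLC25A6*, another such carrier, had −0.47 and −0.07. Transcriptional regulators of mitochondrial genes were sparse. *PPARGC1A* had 0 UMIs in all kept cells, *NRF1* was at 26.6 CPM in naive-like cells with a log2 ratio of −0.01 in cytotoxic cells, and *MYC* had −1.87 there.

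**Figure D5:**
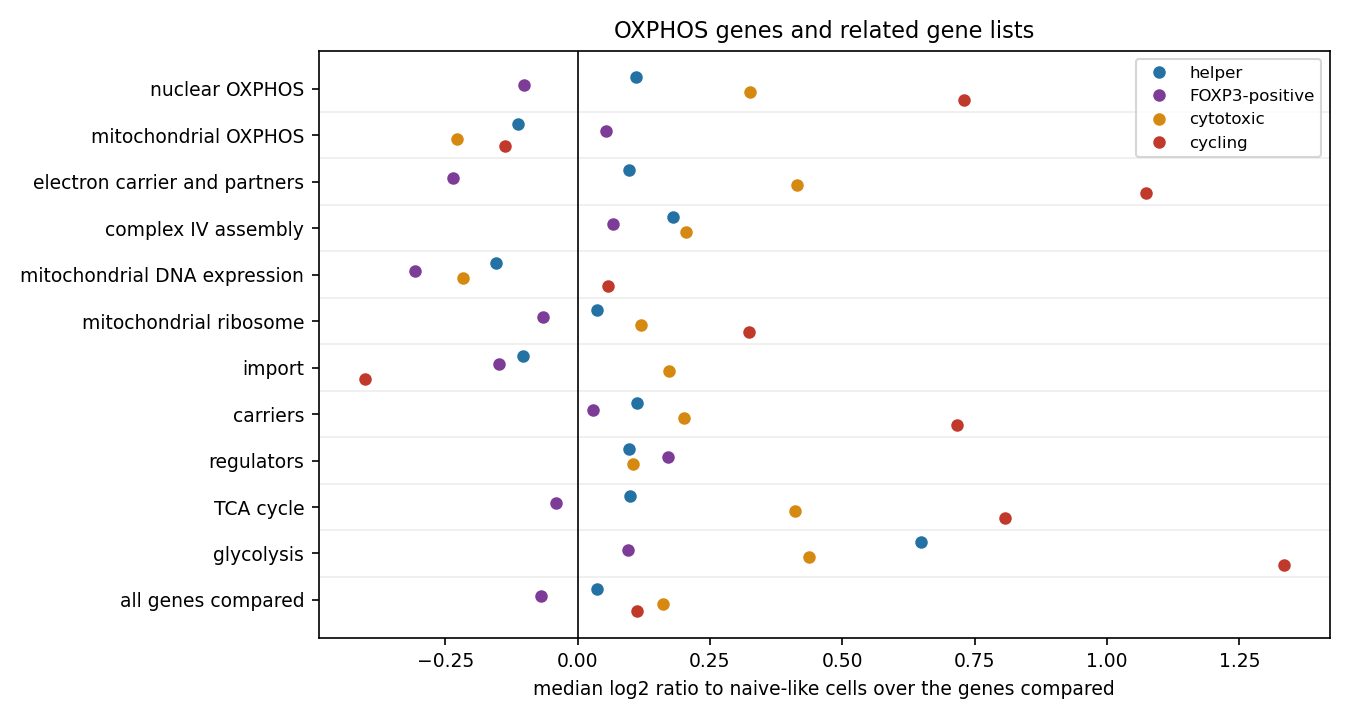
The median log2 ratio of CPM to naive-like cells (horizontal axis) over the genes compared in each list (vertical axis), for helper, FOXP3-positive, cytotoxic and cycling cells. Lists with under 3 genes compared in a class have no point. The nuclear oxidative phosphorylation median is 0.73 in cycling cells and 0.32 in cytotoxic cells, and the glycolysis median reaches 1.33 in cycling cells.

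A cluster of 140 shallow cells, with a median of 899 UMIs, stood far from all others and stayed unnamed. It held 26.2 nuclear and 1173 mitochondrial UMIs per 10000, and ribosomal protein transcripts made up 2.47% of its UMIs. The 79 barcodes over the mitochondrial limit, with a median of 633 UMIs, held 13.6 and 3062. These barcodes were in none of the comparisons of the main classes. The marker gates were applied to all kept cells, so cells of the unnamed cluster could enter that alternative. A part of such barcodes in the named classes was not tested.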

How the data were processed

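The gene expression library and the antibody tag library of the same cells were used. Reads were processed by the authors with Cell Ranger 3.1.0 (STAR 2.5.1b) on the Macaca_fascicularis_5.0 build. The deposited values are raw UMI counts for each barcode, for genes and tags, from before the filter applied in Seurat 3.1.3. The members and all gene lists were chosen with earlier results of these data known, and the naming and dividing rules for clusters were set after clusters had been seen.

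Barcodes with 200 to 4000 genes and at most 20% UMIs of the 13 mitochondrial genes were kept. Seurat 5.3.0 in R 4.3.3 clustered the counts (2000 variable genes, of which 7 members were left out, 20 principal components, resolution 0.8), and 1 cluster with Treg and Tfh markers was divided at resolution 0.5. A name needed at least 3 markers carried, at a CPM 1.5 times the median cluster. A shallow cluster, with a median depth below that of all cells divided by 3, stayed unnamed. The study had derived the markers of its T cell classes from these same cells. No doublets were removed, because the Scrublet threshold in scanpy 1.11.5 called 0 of 8830 cells. Leaving out the 441 cells with the highest scores was an alternative.

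UMIs were summed per class with exact Poisson intervals, and ratios had intervals from the exact binomial split of UMIs (scipy 1.17.1). Tags were divided by 2-component mixtures at 146 (CD4) and 504 (CD8) UMIs. The genes named are the 13 mitochondrial genes, the 3 members with the most UMIs per complex and among the assembly factors, the 5 largest ratios in each direction per comparison, *ATP5IF1*, forms known from other tissues, and up to 3 genes per pathway list by UMIs (all regulators could be named). Only the interval calculations were tested on simulated counts, and the clustering, naming, tag and doublet steps were not. No genome of the files' build was used, so coordinates and sequences are not given.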

Additional observations from a re-analysis of the deposited data

How the results depend on the processing

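No paired analysis was possible because 1 animal gave 1 gene expression library and no test was made. Values are log2 ratios to naive-like cells unless said to be counts of nuclear members. With at most 10% mitochondrial UMIs, the nuclear sum was 0.02 in FOXP3-positive (sign turned) and 0.11 in helper cells, and the mitochondrial sum −0.22 in cycling, −0.02 in FOXP3-positive (sign turned) and −0.07 in helper cells. With 10 principal components the nuclear sum was 0.31 (cytotoxic), 0.07 (FOXP3-positive, sign turned) and 0.09 (helper), the mitochondrial sum −0.31, −0.03 (sign turned) and −0.06, and 13 members were higher in cytotoxic cells. As a mean over cells, the nuclear sum was 0.12 in helper cells and the mitochondrial sum −0.23 (cycling), −0.28 (cytotoxic), 0.05 (FOXP3-positive) and −0.07 (helper). In cells of 3000 to 5000 UMIs, where under 10 cycling cells gave no value, the nuclear sum was 0.32 (cytotoxic), −0.14 (FOXP3-positive) and 0.11 (helper), and the mitochondrial sum −0.30 (cytotoxic) and −0.07 (helper). Marker gates gave nuclear sums of 0.26, −0.03 and 0.11 and mitochondrial sums of −0.22, −0.02 (sign turned) and −0.02 in these 3 classes, and 0.03 (sign turned) in cycling cells.

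Shares of all genes past the fold are given for the main setting only, so counts at other settings cannot be compared with all genes. A 2-fold limit left 12 of 42 members higher in cycling and 1 of 58 in cytotoxic cells. At a lower limit, of 0.32 on the log2 scale, 34 were higher and 3 lower of 42 in cycling cells. In cytotoxic cells 29 were higher and 6 lower of 58, in FOXP3-positive cells 2 and 4 of 58, and in helper cells 12 and 2 of 59. With 100 expected UMIs only 7 members could be compared in cycling cells, and 0 were higher. With no filter on low counts 35 were higher and 3 lower of 59 in cycling cells. Of the alternatives chosen after seeing the data, a denominator without ribosomal protein UMIs gave nuclear sums of 0.27 (cycling), 0.09 (cytotoxic) and 0.06 (helper), and mitochondrial sums of −0.41, −0.45 and −0.16. On that scale 19 members were higher and 2 lower of 47 in cycling cells, and 2 higher and 4 lower of 59 in cytotoxic cells. Without the highest doublet scores, which took 166 cytotoxic cells, the cytotoxic sums were 0.30 (nuclear) and −0.32 (mitochondrial), with 12 members higher and 1 lower. The cause of these changes was not tested. Under the alternatives named here that gave a value, the nuclear sum kept its direction in cycling, cytotoxic and helper cells, and the mitochondrial sum in cytotoxic and helper cells, but within narrower bands of depth it turned in helper cells at 2000 to 3000 UMIs (424 against 381 per 10000) and in cytotoxic cells below 2000 UMIs (428 against 404). Depth limits the cycling values most, with 393168 UMIs in 47 cells.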
